A study of Mus musculus with 8 samples.

Results

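D2 medium spiny neurons of the mouse caudate putamen were described from single-nucleus RNA libraries at 3 and 21 months of age. Members were chosen by a rule on counts of unique molecular identifiers (UMIs, each tagging 1 captured RNA molecule). A barcode needed 500 or more genes, at least 5 UMIs of Rgs9 and Pde10a together, and at least 3 UMIs of Drd2, Adora2a and Gpr6 together. That last sum also had to be at least 3 times the sum of the D1 genes Drd1, Tac1, Isl1 and Pdyn, and the sum of Otof, Casz1 and Col11a1 had to stay under 6 UMIs. The rule found 15576 D2 nuclei among 61767 caudate putamen barcodes with 500 or more genes (25.2%), in a series of 108519 such barcodes. By library there were 2985 and 4736 D2 nuclei at 3 months and 3247 and 4608 at 21 months. D1 nuclei, taken for comparison by the mirrored rule, numbered 9683.

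Medium spiny neurons are the GABAergic projection neurons that make up most of the striatum. Those with the D2 dopamine receptor (Drd2) form the indirect pathway to the external pallidum, and those with the D1 receptor form the direct pathway to the output nuclei of the basal ganglia. Drd2 lowers cyclic AMP through an inhibitory G protein, while the adenosine receptor Adora2a and the constitutively active receptor Gpr6 raise it in the same cells, and the D2 cells make the opioid peptide precursor proenkephalin (Penk).

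The animals were C57BL/6JN mice, an inbred strain, with no treatment or engineered allele named in the labels. Punches of the left hemisphere were lysed, nuclei were stained with Hoechst and sorted, and libraries were made with the 10x Genomics v3.1 chemistry, 2 per region and age from caudate putamen and anterior hippocampus. Each library pooled nuclei of a male and a female mouse of equal age, 1 of each, so a group here is 2 libraries and 4 animals, and p-values measure the spread between 2 pools per age. The groups compared are the 3-month and the 21-month caudate putamen libraries, called young and old below.

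D2 nuclei were deeply covered, with a median of 13736 and 15290 UMIs per nucleus in the young libraries and 12815 and 9880 in the old ones, and library sums of 44904419 to 79478226 UMIs. The second old library was the shallowest, and 234 of its D2 nuclei had under 5000 UMIs against 12 to 30 in the others. At an equal 5000 UMIs per nucleus the median number of genes was 2056 to 2079 in all 4 libraries. Pairs of libraries shared 53 to 93 barcodes (0.427% to 0.630% of the smaller). Scrublet called 10.2% to 18.0% of D2 nuclei doublets. They were retained in the main results and left out in an alternative. Per the file headers the second young library was counted with another version of Cell Ranger than the other 3, and results without it are given beside the counts.

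Markers that the rule did not use followed the label. Penk reached 318 and 351 CPM (UMI counts scaled to an equal total per library sum) in the young D2 sums and 281 and 259 in the old ones, against 49 to 68 in D1 sums. Grik3, a kainate receptor subunit, stood at 250, 237, 303 and 352 CPM in the 2 young and 2 old D2 sums, and its log2 ratio to D1 was 4.78 to 5.64. The delta opioid receptor gene Oprd1 (4.36 to 5.16), the uracil-degrading enzyme gene Upb1 (4.57 to 4.83), the phosphatase gene Ptprm (3.04 to 3.30), the transcription factor Sp9 (2.98 to 3.29), the orphan receptor gene Gpr52 (2.49 to 2.97) and Penk (2.09 to 2.51) were also above D1 in each library, as log2 D2 over D1. Of 8 genes listed for D1 identity, 7 were below D1 in every library, with Ebf1, a transcription factor of direct-pathway neurons, the lowest at -3.27 to -4.04. The relaxin receptor gene Rxfp1 went against its list, at 0.97, 0.47, 0.33 and -0.24. Since members were chosen on UMIs, these ratios are descriptions with no test.

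**Figure D1:**
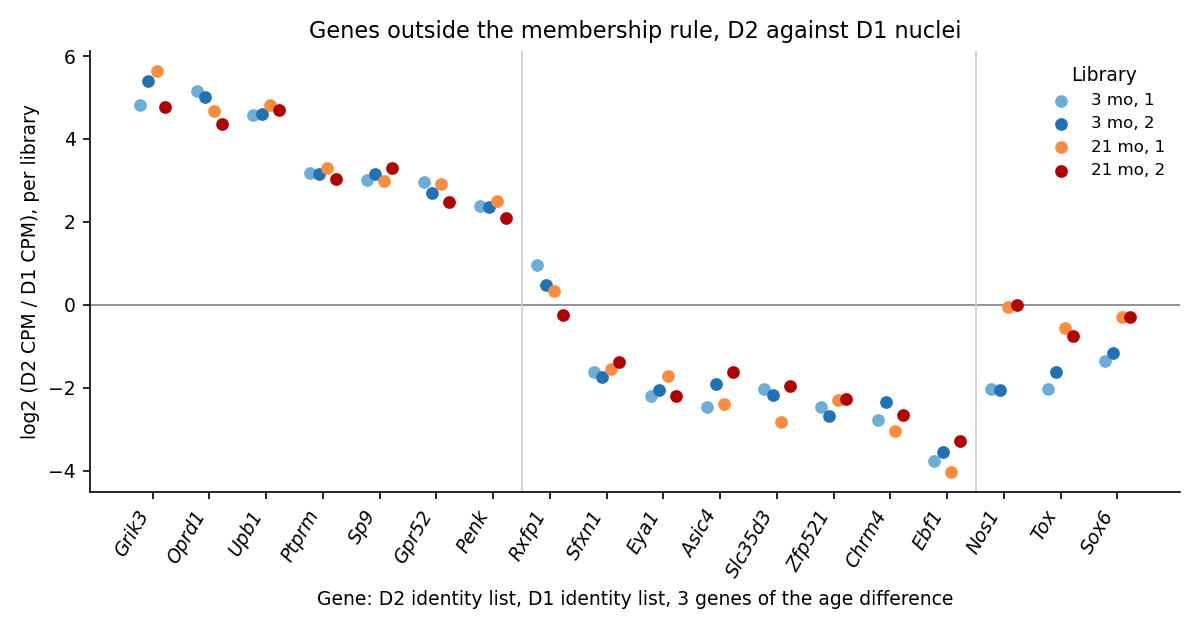
Log2 ratio of D2 over D1 CPM (y axis) for genes outside the membership rule (x axis), 1 point per library, with 3-month libraries in blue and 21-month libraries in orange and red. D2 identity genes lie between 2.09 and 5.64, while Nos1 moves from near -2.0 in the young libraries to near 0 in the old ones.

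Outside both lists, the genes most above D1 in all 4 libraries (at 5 CPM or more) included Ankk1, the neighbour of Drd2 on its chromosome (log2 5.41 to 6.104), Nell1, a secreted protein gene (4.03 to 4.48), the muscarinic receptor gene Chrm3 (3.70 to 4.92), Plxdc1 (3.42 to 3.76) and the cation channel gene Trpc4 (3.35 to 3.77). The synaptic adhesion gene Lingo2 was the most abundant of those lower in D2, at 129 to 184 CPM in D2 sums and a log2 ratio of -3.26 to -3.99. Mdk, Sntg2 and Cntnap3 were lower by a similar margin. These genes too come from nuclei that were split on their counts and carry no test.

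At the margin of the rule, 802 members had exactly 3 UMIs of the 3 D2 markers and 523 barcodes missed it with 2. Penk was 302 CPM in the former, 241 CPM in the latter and 309 CPM over all members. A further 454 barcodes had D2 markers between 2 and 3 times their D1 genes. They held 184 CPM of Penk and 60.8 CPM of Drd1, against 116 CPM of Drd1 in D1 nuclei.

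Some RNA of other cells was present in D2 barcodes. Oligodendrocyte nuclei, which should lack Penk, held 224, 256, 152 and 200 CPM of it. At 5000 UMIs a Penk UMI was seen in 66.5% to 75.4% of D2 nuclei, 22.0% to 30.0% of D1 nuclei and 32.5% to 57.5% of the oligodendrocyte nuclei that deep (40 to 183 per library). In D2 sums all 8 astrocyte markers were detected, and together they held 1000 and 1089 CPM in the young and 1175 and 1321 CPM in the old libraries (13719 to 14947 CPM in astrocyte nuclei). In D2 nuclei with no UMI of Tox or Sox6 at 5000 UMIs they still held 956 to 1251.5 CPM, of which the astrocyte gene Slc1a2 was 23.9 to 46.5 CPM. Most of that sum thus came from other genes of the list, and how much of it was astrocyte RNA was not tested. The 10 oligodendrocyte markers held 243 and 261 against 289 and 291 CPM, and 172 to 184 CPM in all 4 libraries once doublets were left out. Microglia markers held 48.4 to 64.7 CPM, vascular markers 10.3 to 14.4 CPM and excitatory neuron markers 2.28 to 5.88 CPM.

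D2 nuclei made up 59.1% and 59.8% of D1 and D2 nuclei in the young libraries and 61.7% and 65.5% in the old ones. Old libraries lay above young ones by 4.14 percentage points, and the 2 ages did not overlap. An exact two-sided permutation test gave p = 0.333, the smallest that 2 libraries against 2 allow. When all barcodes were first thinned to 5000 UMIs and the rule applied again, the shares were 82.7%, 83.3%, 83.7% and 83.7%, a difference of 0.668 points. The thinned shares did not overlap between ages either. D1 nuclei lose membership at lower depth, and depth was lowest in the second old library. The part of depth in the difference cannot be told apart here.

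With age, 931 of 18368 genes tested in D2 sums had an adjusted p under 0.05 by the quasi-likelihood test of edgeR with Benjamini-Hochberg adjustment, 427 of them higher and 504 lower at 21 months. These are 5.07%, 2.32% and 2.74% of the genes tested, and 4476 genes (24.4%) had an unadjusted p under 0.05. The genes that fell included splicing factors, chaperones, ribosomal and respiratory chain proteins and parts of the cyclic AMP pathway. Those that rose included clustered protocadherins, Nos1 and a group of genes far more abundant in glia. Calls depended on each library: without the first or second young library 345 and 95 genes were called, and without the first or second old library 96 and 51.

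Of the 427 higher genes, 160 (37.5%) were at least 4 times as abundant in every astrocyte sum, or every oligodendrocyte sum, as in the highest D2 sum, against 11.9% of all genes tested and 5 of the 504 lower genes (0.992%). Astrocyte markers themselves had a median log2 change of 0.86 in D2 sums, beside 0.68 in D1 and 0.78 in oligodendrocyte sums. In D2 sums 2 of 8 rose (25.0%, beside 2.32% of all genes), the glutamate transporter genes Slc1a2 and Slc1a3. Slc1a2 went from 59.2 and 52.6 to 120 and 97.0 CPM, and Slc1a3 from 13.0 and 12.4 to 26.4 and 22.8 CPM. Slc1a2 was not called in the fit per animal or without the first young library. Without the first and the second young library 5 and 0 of the 8 were called. Of 10 oligodendrocyte markers 2 rose (Mag and Aspa, list median 0.37), and none was called at 5000 UMIs, with doublets left out or with any 1 library left out. With doublets left out the number of D2 age genes called was 717, of which 295 were higher and 422 lower. Of the 931 genes, 654 were still called and 15 had the opposite direction. The part of glial RNA in the rise of the other higher genes was not tested.

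**Figure D2:**
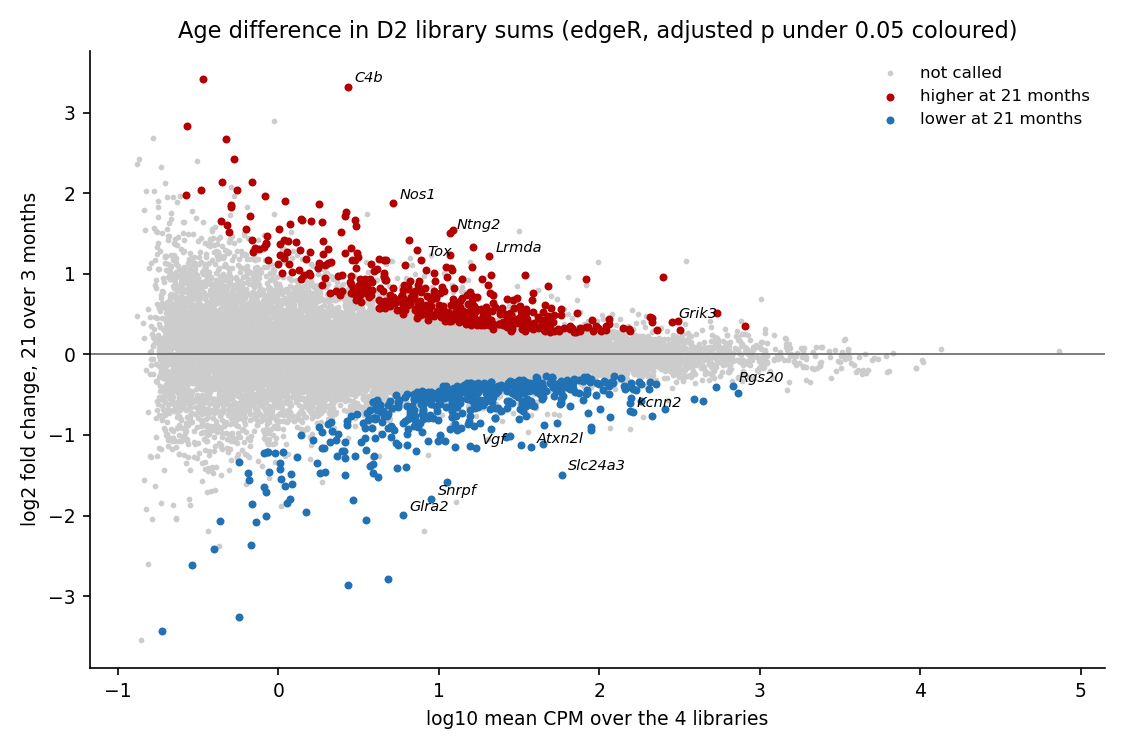
Log2 fold change of 21 over 3 months in D2 library sums (y axis) against the log10 mean CPM (x axis), 1 point per gene tested, coloured where the adjusted p was under 0.05. The 504 lower genes include abundant ones such as Rgs20, and C4b, Nos1 and Glra2 are among the far points named in the text.

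Nos1, the neuronal nitric oxide synthase gene (chromosome 5), rose. Genes here are ordered among called genes with a mean of 5 CPM or more over the 4 libraries and no overlap of ages. A lack of overlap among them was thus set by this choice. Nos1 and Tox reached the mean only through the old libraries, so the first place of Nos1 and the place of Tox depend on that minimum. Nos1 held 2.50 and 1.93 CPM in the young and 7.57 and 8.78 CPM in the old D2 sums. Both old libraries lay far above both young ones (log2 change 1.88, SE 0.16, adjusted p = 0.00786). Ntng2, the netrin-G2 gene, followed at 6.43 and 5.71 against 15.7 and 19.2 CPM (log2 1.50, SE 0.12, adjusted p = 0.00650). For this gene D1 sums had a log2 change of 1.54 in the same libraries. Irak3 (log2 1.42), Stard6 (1.29), Lrmda (1.22), Tox (1.17), Fmn1 (1.08), Fam117a (1.07), Csdc2 (1.05) and Pcdhb14 (1.05) completed the 10 largest. Lrmda, Tox and Csdc2 were among the genes at least 4 times as abundant in glia, with 134 to 222, 549 to 613 and 95.8 to 114 CPM in astrocyte sums.

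C4b, a complement component, changed more but was rare in D2 sums. It rose from 0.574 and 0.415 to 5.06 and 4.79 CPM (log2 3.32, SE 0.20), while oligodendrocyte sums went from 10.8 and 12.5 to 93.7 and 115.5 CPM. A C4b UMI was carried by 0.303% and 0.148% of young and 2.52% and 2.08% of old D2 nuclei at 5000 UMIs, against 5.45% and 7.96% and then 28.4% and 27.5% of oligodendrocyte nuclei. D1 nuclei were close to D2 nuclei, with 0.146% and 0.0632% when young and 2.24% and 2.19% when old. The D2 share stayed below the oligodendrocyte share in each library, and the part of free or mixed RNA in it was not tested.

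The 3 largest falls named in the same order had D1 changes of similar size. Glra2, a glycine receptor subunit gene on the X chromosome, went from 10.2 and 8.996 to 1.98 and 2.90 CPM (log2 -1.99, SE 0.18, adjusted p = 0.00974). Snrpf, a core protein of splicing ribonucleoproteins, went from 14.4 and 13.4 to 4.39 and 3.77 CPM (log2 -1.80, SE 0.11). Slc24a3, a potassium-dependent sodium/calcium exchanger gene (chromosome 2), was the most abundant of them and went from 81.4 and 89.8 to 29.6 and 32.6 CPM (log2 -1.49, SE 0.08, adjusted p = 0.00282). No overlap of ages was part of the naming choice. Glra2 and Snrpf reached the mean of 5 CPM only through the young libraries, so their places depend on that minimum. For the 3 genes the same libraries gave D1 changes of -2.07, -1.83 and -1.42.

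A Slc24a3 UMI was seen in 25.7% and 28.9% of young and 10.0% and 11.5% of old D2 nuclei at 5000 UMIs, and in 27.3%, 31.9%, 19.7% and 12.5% of oligodendrocyte nuclei. In oligodendrocyte sums the gene went from 90.4 and 103 to 76.5 and 79.0 CPM. Snrpf moved in glia too, from 34.3 and 29.1 to 6.12 and 7.29 CPM in oligodendrocyte sums. The other 7 of the 10 largest falls were the mitochondrial glutamate carrier gene Slc25a22 (log2 -1.41), Shoc1 (-1.39), Ifi27l2b (-1.20), the secreted neuropeptide precursor gene Vgf (-1.16), the small RNA host gene Snhg9 (-1.15), Atxn2l (-1.15) and Nwd2 (-1.14).

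Several of these 20 genes overlap others in the annotation, and the sources used here do not give whether counting used strand. Reads of Nos1, Irak3, Stard6, Lrmda, Tox, Fmn1, Fam117a, Snrpf and Snhg9 cannot be told apart from an opposite-strand gene under unstranded counting. Ntng2, Slc24a3 and Shoc1 overlap a gene on their own strand. Without the first young library 17 of the 20 were still called, without the second young library 13, without the first old library 13 and without the second old library 10. Nos1, Ntng2, Lrmda, Glra2, Snrpf, Slc24a3, Vgf and Atxn2l were called in each of those 4 fits. Of 72 called genes in all that the naming rule gives, these and the members of gene lists described next, many were no longer called in those fits. All kept their direction, which was close to fixed in advance since they were called on all libraries together.

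Drd2, Adora2a and Gpr6 chose the members, so their levels are given as a description with no test. Drd2 held 542 and 568 CPM in the young and 590 and 667 CPM in the old libraries, and Adora2a 171 and 160 against 168 and 185 CPM. Gpr6 stood at 22.8 and 19.0 against 11.3 and 10.3 CPM, with a UMI in 12.01% and 9.47% against 5.56% and 5.33% of D2 nuclei at 5000 UMIs. Those shares were 1.39% to 2.09% in D1 nuclei and 10.0%, 7.96%, 4.92% and 2.50% in oligodendrocyte nuclei (the last 1 of 40). Penk had a log2 change of -0.34 (SE 0.09, adjusted p = 0.0701) by edgeR and was not called, while DESeq2, edgeR with no filter on low counts and edgeR with the replicate block called it lower, each at -0.34. Of the 7 D2 identity genes outside the rule, 2 rose and none fell (28.6% called, beside 2.32% of all genes higher): Grik3 (log2 0.40, SE 0.09) and Upb1 (0.48, SE 0.09), from 12.3 and 13.7 to 18.6 and 18.4 CPM. Neither was called with any 1 library left out. Upb1 was also lost at 5000 UMIs and in the fit per animal, and Grik3 with the trend in gene length removed. None of the 8 D1 identity genes was called in either direction, and their sum in D2 nuclei was 72.1 and 73.0 against 63.6 and 84.1 CPM.

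The signalling chain below the dopamine receptor had members that fell and none that rose. Of 64 G protein, cyclic AMP and dopamine transducer genes, 7 were lower (10.9%, beside 2.74% of all genes), with a list median of -0.06 against 0.003 over all genes. Ppp1r1b, which encodes the phosphatase inhibitor DARPP-32 of medium spiny neurons, went from 81.0 and 81.8 to 56.4 and 63.6 CPM (log2 -0.47, SE 0.07, adjusted p = 0.0222). Prkar1a, a regulatory subunit of protein kinase A, went from 45.6 and 45.1 to 34.7 and 35.9 CPM (log2 -0.39, SE 0.06). Arpp19, a phosphatase inhibitor regulated by phosphorylation (-0.35), Ppp1ca, a catalytic subunit of protein phosphatase 1 (-0.46), the receptor kinase gene Grk5 (-0.55) and the G protein regulators Rgs4 (-0.42) and Rgs20 (-0.39) were the others. Rgs20 was by far the most abundant, at 753 and 775 against 601 and 588 CPM. For all 7 the old libraries lay under the young ones, which was close to fixed by the call. Of all 64 genes 22 had both old libraries under both young ones, as 24.2% of all genes did. D1 changes of the 7 in the same libraries ran from -0.17 to -0.52. The list's count fell to 4, 1, 1 and 0 without the first young, second young, first old and second old library.

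None of 19 striatal transcription factors was called. Of 48 potassium channel genes 3 fell and 1 rose, 8.33% beside 5.07% of all genes called, and none was called without the second young library or either old library. The calcium-activated channel gene Kcnn2 went from 170 and 215 to 123 and 118 CPM (log2 -0.71, SE 0.13), and Kcna2 (-0.55) and the inward rectifier gene Kcnj2 (-0.49) were also lower, while Kcna6 rose by 0.83. None of 31 sodium and calcium channel genes passed the test.

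At the synapse calls were few, and they are read against the 2.32% of all genes higher and 2.74% lower. Of 30 vesicle release genes the vesicle protein gene Sv2c rose (185 and 173 to 249.1 and 248.1 CPM, log2 0.45) and the priming factor gene Unc13a fell (172 and 171 to 131 and 134 CPM, log2 -0.40), each 3.33% of the list. Of 30 adhesion genes Nlgn2, the neuroligin of inhibitory synapses (-0.48), and Ptprs (-0.33) fell (6.67%). Gabra5 (-0.36) fell among 12 GABA-A receptor subunits (8.33%). Of 39 calcium and kinase signalling genes Camk2g rose (0.72), which is 2.56% of the list, and it was not called with the trend in gene length removed. Of the 6 genes in this paragraph, Sv2c, Unc13a, Ptprs and Gabra5 were not called with any 1 library left out, and Gabra5 was also lost at 5000 UMIs, with doublets left out, with at least 6 marker UMIs and in the fit per animal. Nlgn2 and Camk2g were not called without the second young library or without either old library.

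Of 41 chaperones tested, which fold newly made and damaged proteins, 10 fell and none rose (24.4%, beside 2.74% of all genes), 37 had a negative change, and 25 had both old libraries under both young ones (24.2% of all genes did). The list median was -0.23, beside -0.20 in D1 and -0.28 in oligodendrocyte sums. Hspa8, the constitutive cytosolic Hsp70, went from 73.1 and 66.0 to 50.1 and 43.3 CPM (log2 -0.60, SE 0.09, adjusted p = 0.0204). Hspa5, the Hsp70 of the endoplasmic reticulum also called BiP, went from 33.2 and 29.8 to 20.1 and 22.7 CPM (log2 -0.58, SE 0.09, adjusted p = 0.0204). Both were lower in each old library than in each young one, which was close to fixed by the call. D1 sums of the same libraries gave -0.56 and -0.67.

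Split by compartment after the values were seen, 6 of 10 chaperones of the endoplasmic reticulum fell (Hspa5, Hsp90b1, Calr, Pdia3, Pdia4 and Pdia6, log2 -0.42 to -0.66) and 4 of the other 31 did (Hspa8, Hsph1, Dnaja1 and Tcp1). Calr, the lectin chaperone calreticulin, had the largest fall, from 30.7 and 23.6 to 16.7 and 18.1 CPM. Xbp1, the transcription factor of the unfolded protein response, which induces many of these genes, went from 18.4 and 17.7 to 12.6 and 12.9 CPM (log2 -0.53, SE 0.07). Leaving out 1 library at a time reduced the count of chaperones called to 0 (first young), 2 (second young), 1 (first old) and 0 (second old), with list medians of -0.19 to -0.27.

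The promoters of several of these chaperones are shown since they carry a shared motif. The endoplasmic reticulum stress element (CCAAT, 9 bases of any kind, then CCACG), searched on both strands in the 250 bases before the start of each gene, was found in 35 of 27025 genes with a promoter in RefSeq (0.130%). It was found in 6 of the 9 endoplasmic reticulum chaperones matched there (Hspa5, Hsp90b1, Dnajc3, Calr, Canx and Pdia6) and in 4 of the 9 matched chaperones that fell. Sequences are from RefSeq on GRCm38.p6, written in the direction of the gene, with both ends of each match in capitals. The match is on the gene's strand in Hspa5 and Pdia6 and on the other in Calr, and Hsp90b1 has 1 on each.
Hspa5, chr2:34771840-34772089, plus strand: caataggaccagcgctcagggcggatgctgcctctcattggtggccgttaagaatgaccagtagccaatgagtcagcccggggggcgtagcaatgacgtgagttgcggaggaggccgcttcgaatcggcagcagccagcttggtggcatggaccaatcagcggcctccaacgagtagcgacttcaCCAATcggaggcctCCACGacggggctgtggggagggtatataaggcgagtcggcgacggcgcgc
Pdia6, chr12:17266339-17266588, plus strand: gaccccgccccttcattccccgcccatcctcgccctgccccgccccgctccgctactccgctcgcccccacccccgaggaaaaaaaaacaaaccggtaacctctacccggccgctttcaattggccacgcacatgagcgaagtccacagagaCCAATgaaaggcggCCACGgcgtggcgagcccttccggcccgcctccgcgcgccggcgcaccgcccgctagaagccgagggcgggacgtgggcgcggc
Calr, chr8:84846932-84847181, minus strand: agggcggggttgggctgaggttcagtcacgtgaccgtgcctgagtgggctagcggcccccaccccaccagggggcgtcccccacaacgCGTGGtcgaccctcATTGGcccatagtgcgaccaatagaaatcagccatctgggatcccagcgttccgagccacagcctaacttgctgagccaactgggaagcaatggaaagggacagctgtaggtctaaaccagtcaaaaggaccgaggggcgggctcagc
Hsp90b1, chr10:86705445-86705694, minus strand: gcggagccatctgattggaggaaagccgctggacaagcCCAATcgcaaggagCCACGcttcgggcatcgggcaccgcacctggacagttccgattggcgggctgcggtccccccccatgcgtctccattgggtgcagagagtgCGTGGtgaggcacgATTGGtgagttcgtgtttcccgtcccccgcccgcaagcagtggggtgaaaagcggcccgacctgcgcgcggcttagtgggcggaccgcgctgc
A match describes the letters only. Pdia3 and Pdia4 fell by 0.45 and 0.54 on the log2 scale, and neither has a match in this window.

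Genes of the splicing, translation and energy machinery are read against the 2.74% of all genes that fell. Of 51 splicing factor and ribonucleoprotein genes 7 fell (13.7%) and none rose. Srsf5, a serine/arginine-rich splicing factor, went from 125 and 121 to 81.0 and 75.0 CPM (log2 -0.68, SE 0.07, adjusted p = 0.00974), and Srsf9 (-0.79), Celf3 (-0.49) and Hnrnph1 (-0.52) fell with it. Of 80 oxidative phosphorylation genes 11 fell (13.8%) and none rose, with a median of -0.15. They were led by Atp5e, from 6.89 and 6.06 to 3.36 and 3.75 CPM, Atp5k (log2 -0.61), Ndufa1 (-0.68) and Cox6c (-0.45). Of 79 ribosomal protein genes 7 fell (8.86%) and none rose (median -0.14), among them Rpl10a (-0.60), Rps21 (-0.52), Rpl37 (-0.65) and Rpl9 (-0.44), genes whose pseudogene copies can share reads. Of 36 proteasome genes only Psmd2 fell (-0.51), which is 2.78% and near the share of all genes. These shifts were not particular to D2. For splicing, oxidative phosphorylation and ribosomal genes the D1 medians were -0.07, -0.16 and -0.10. The oligodendrocyte medians were -0.08, -0.34 and -0.24. The test of D2 against D1 age effects called 0 genes in each of these lists, beside 0.291% of all genes. With any 1 library left out, 0 oxidative phosphorylation and 0 ribosomal genes were called, and 1 to 4 splicing genes.

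The lower genes were short. Their median gene length was 10408 bases, against 50466 bases for the higher genes and 22886 bases for all genes tested. Among the 3671 shortest genes 26 rose and 196 fell, and among the 3671 longest 166 rose and 56 fell. Across 18354 genes, which are not independent, Spearman's rho between length and the age change was 0.14 in D2 and 0.12 in D1 sums of the same libraries. In oligodendrocyte sums rho was 0.34 across 12397 genes. When each library's trend with length was removed, the number of D2 age genes called was 701, and the lists above had 8 chaperones, 6 oxidative phosphorylation, 3 ribosomal and 5 splicing genes lower. The part of gene length, which also separates libraries of 1 age, was not tested beyond that.

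Clustered protocadherins are cell-surface adhesion proteins expressed in different combinations by single neurons. Of 52 genes tested 7 rose and none fell (13.5%, beside 2.32% of all genes), 51 had a positive change, and 47 had both old libraries above both young ones, as 31.7% of all genes did. Their median log2 change was 0.54. Pcdhb14 went from 4.88 and 5.81 to 10.5 and 12.1 CPM, Pcdhb7 from 3.09 and 2.64 to 6.41 and 6.65 CPM (log2 1.17, SE 0.13, adjusted p = 0.0104) and Pcdhgb4 from 4.37 and 4.37 to 7.24 and 7.33 CPM. The other 4 were Pcdha1, Pcdha4, Pcdhb6 and Pcdhb8. In D1 sums of the same libraries the list median was 0.48. The alpha and gamma genes share their last exons within a cluster, so the counts of single members are uncertain. Without the first young, second young, first old and second old library 2, 1, 0 and 0 of them were called, with medians of 0.52 to 0.61, and at 5000 UMIs 3 of 47.

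Of 19 clock genes 2 rose, Per3 (log2 0.49) and Hlf (0.34), and 2 fell, the core activator Arntl (168 and 162 to 115 and 133 CPM, log2 -0.43) and its target Dbp (-0.45). These 4 are 21.1% of the list, beside 5.07% of all genes. With the trend in gene length removed 1 was called (Arntl), and without the first young, second young, first old and second old library 1, 0, 0 and 0. The time of day of the dissections is not given in the sources used here. Of 22 antigen presentation and interferon genes 1 was called, the interferon response factor Irf9 (-0.91, 4.55% of the list beside 2.74% of all genes lower), while 15 had a positive change and the list median was 0.15. Irf9 was not called without the second young library or without either old library. Of 17 stress genes 2 fell, Xbp1 and the growth arrest gene Gadd45g (-0.82), which is 11.8% beside 2.74% of all genes, with a list median of -0.05. None was called with any 1 library left out, and 1 with the trend in gene length removed.

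**Figure D3:**
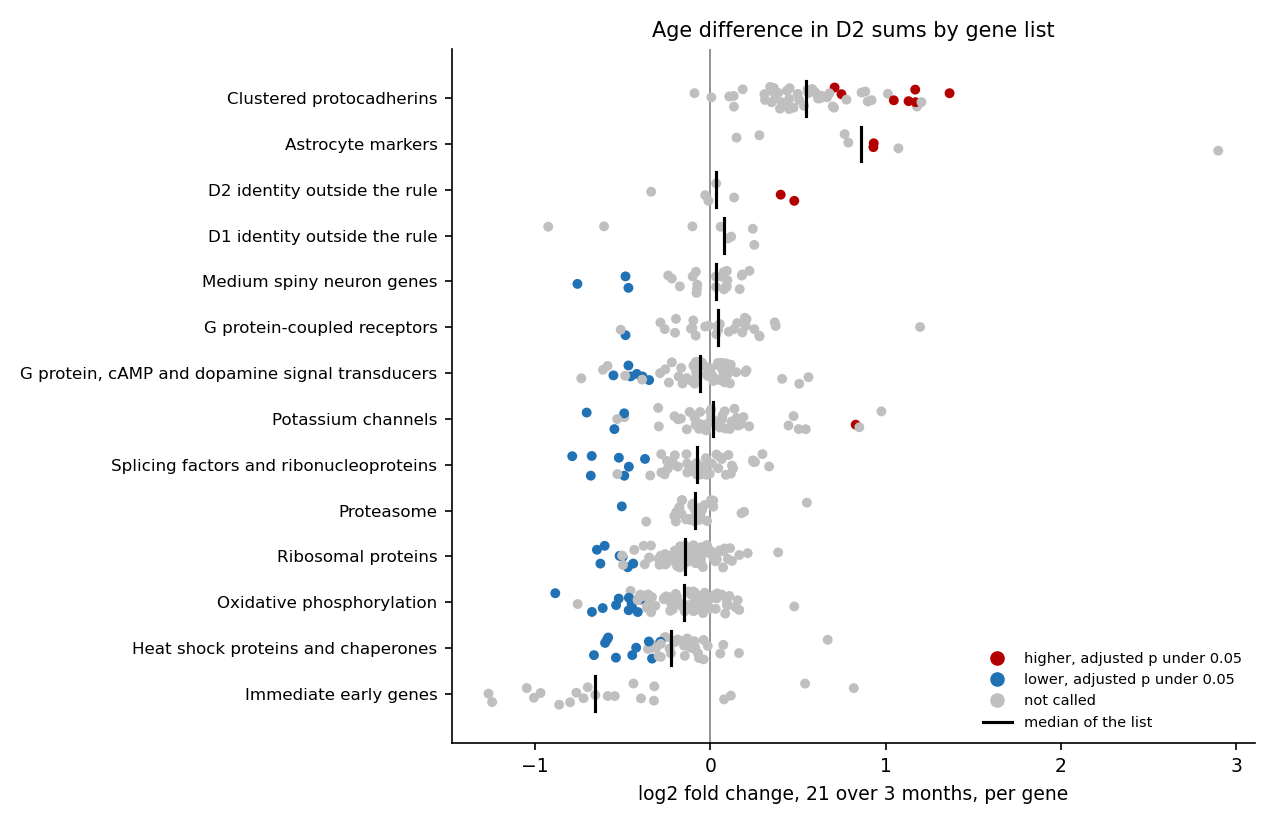
Log2 fold change of 21 over 3 months in D2 sums (x axis) for each tested gene of 14 lists (y axis), with black bars at list medians and colour where the adjusted p was under 0.05. Protocadherins lie to the right (7 called higher), chaperones, oxidative phosphorylation and ribosomal genes to the left, and immediate early genes have the lowest median with none called.

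Whether age acted alike in the 2 kinds of medium spiny neuron was tested as the difference of their age effects, with library as a block, since D2 and D1 nuclei of 1 library share animals and droplets. The test gave 55 of 18879 genes (0.291%), 28 with a higher (0.148%) and 27 with a lower (0.143%) age effect in D2 than in D1. An unadjusted p under 0.05 was reached by 1119 genes (5.93%). DESeq2 called 14 genes. The edgeR test depended on each library. Without the first young, second young, first old and second old library it gave 104, 226, 49 and 13. In D1 sums alone 141 of 17653 genes changed with age (0.799%), 52 higher (0.295%) and 89 lower (0.504%). In oligodendrocyte sums 172 of 12401 did (1.39%), 113 higher (0.911%) and 59 lower (0.476%).

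Nos1 showed the largest of the differences named by the rule (2.07, SE 0.13, adjusted p = 1.80e-09). D1 sums held 10.5, 8.34, 7.84 and 8.81 CPM in the 2 young and 2 old libraries, with no change called. D2 sums started well below D1 in the young libraries and stood at the D1 level in the old ones, with a log2 ratio of -2.03 and -2.06 when young and of -0.05 and -0.0048 when old. The test was past the threshold in each of the 9 alternatives run for it, with differences of 1.55 to 2.10.

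More D2 nuclei carried Nos1 in the old libraries, and at 5000 UMIs more D1 nuclei did too. A Nos1 UMI was found in 3.22% and 2.94% of young and 7.45% and 5.62% of old D2 nuclei, with a mean of 1.18 and 1.10 and then 1.41 and 1.71 UMIs in them. At 5000 UMIs carriers held a mean of 1.17 and 1.07 against 1.18 and 1.32 Nos1 UMIs, and the shares were 1.18% and 0.975% against 3.08% and 2.72%, where oligodendrocyte nuclei had 0.909%, 1.09% and 2.50% (the last 1 of 40 nuclei) in the 3 libraries in which any carried it, and D1 nuclei 1.65% and 1.14% against 2.44% and 2.40%. The most Nos1 UMIs in 1 nucleus at that depth were 14, 15, 14 and 17 in D1 and 7, 2, 8 and 13 in D2, so the sums of both types, the old D2 sums included, hold a few high nuclei.

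In D2 nuclei with a Nos1 UMI the D2 identity genes summed to 1070 to 1212 CPM against 1062 to 1123 in the rest, and Slc1a2 stood at 22.9 to 70.7 CPM against 50.3 to 93.2. Doublet calls covered 5.71%, 17.4%, 13.1% and 19.3% of them and 10.2% to 18.4% of the rest. Sst, Npy and Chodl, markers of the interneurons known for nitric oxide synthase, held 34.3, 4.35, 26.3 and 33.6 CPM in them (1 to 20 UMIs per library) and 14.02, 10.4, 11.8 and 13.8 CPM in the rest, so they were higher in carriers in 3 of 4 libraries. D1 identity genes held 34.3, 56.5, 80.8 and 67.2 CPM in carriers and 57.5, 54.1, 52.7 and 67.1 CPM in the rest. The part of interneuron RNA in the rise was not tested. With doublets left out the Nos1 age change in D2 was 1.87.

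Tox and Sox6, transcription factor genes, also had a higher age effect in D2 than in D1, and their D2 nuclei carried astrocyte RNA. Tox went from 4.53 and 4.93 to 10.4 and 11.3 CPM in D2 sums, with 15.3 to 19.0 CPM in D1 sums at either age (difference 1.15, SE 0.12, adjusted p = 1.53e-04). Sox6 went from 11.1 and 9.84 to 16.9 and 17.6 CPM, with 20.8 to 28.8 CPM in D1 sums (difference 0.97, SE 0.09, adjusted p = 5.78e-07). Astrocyte sums held 549 to 613 CPM of Tox and 590 to 725 CPM of Sox6.

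At 5000 UMIs, 3.83% and 3.03% of young and 5.41% and 6.15% of old D2 nuclei had a UMI of Tox or Sox6. In them Slc1a2 reached 663 to 1002 CPM against 23.9 to 46.5 CPM in the rest, and 43.0% to 51.1% were called doublets against 8.85% to 16.6%. The carriers thus stood apart from other D2 nuclei in each library. The most Tox UMIs in 1 nucleus at that depth were 10 to 15 in D1 and 5 to 10 in D2. For Sox6 they were 18 to 24 and 7 to 15, so these sums also hold a few high nuclei. With doublets left out the difference between D2 and D1 was 1.79 for Tox and 1.37 for Sox6, both still past the threshold. How far astrocyte RNA accounts for it was not tested beyond that.

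**Figure D4:**
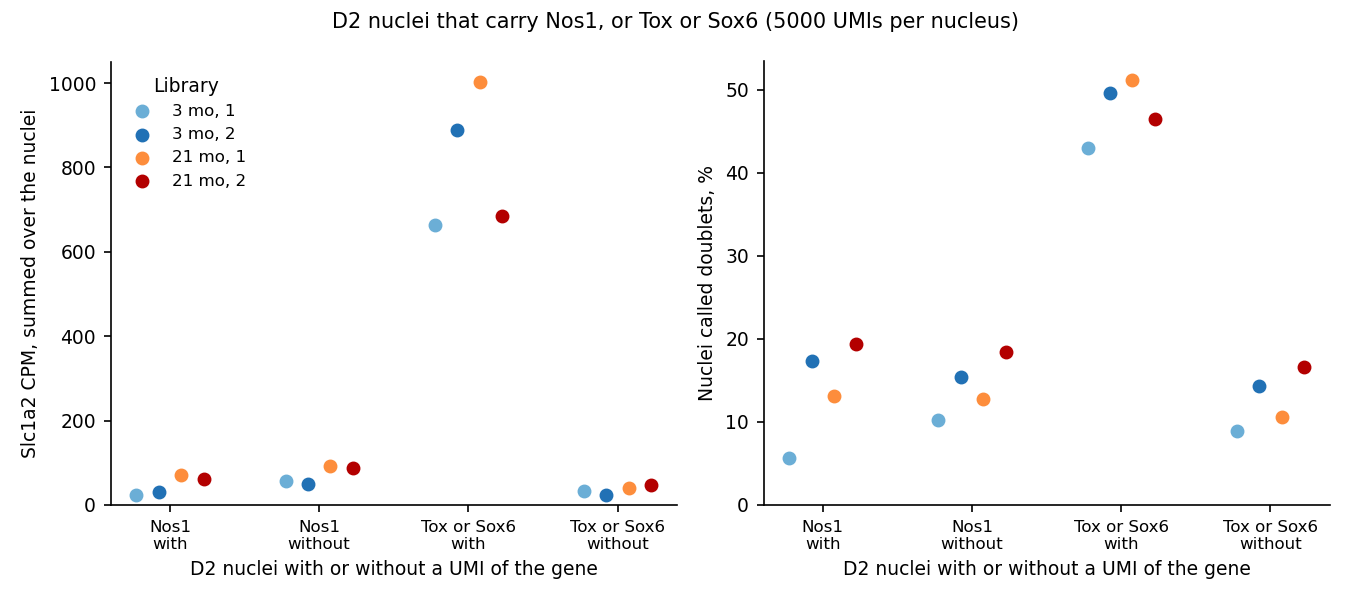
Slc1a2 CPM (left) and percent called doublets (right) in D2 nuclei with or without a UMI of Nos1, or of Tox or Sox6, at 5000 UMIs per nucleus, 1 point per library coloured by library. Carriers of Tox or Sox6 lie at 663 to 1002 CPM and 43.0% to 51.1%, far above the others, while carriers of Nos1 lie at 22.9 to 70.7 CPM and 5.71% to 19.3%.

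Scn9a, a voltage-gated sodium channel gene (difference 0.74, SE 0.09), and the noncoding A230077H06Rik (0.71) were the next largest, the latter not called with DESeq2, at 5000 UMIs or without either old library. Scn9a held 21.9 and 19.6 CPM in young and 31.8 and 25.6 CPM in old D2 sums, and 32.03 and 34.4 against 29.0 and 26.7 CPM in D1 sums. It missed the threshold when nuclei were thinned to 5000 UMIs (adjusted p = 0.0656) and without either old library. At the other end were Gm49678 (-1.65) and Sfmbt2 (-1.15), a Polycomb-related gene. Gm49678 held 6.43 and 6.76 CPM in young and 1.98 and 6.58 CPM in old D2 sums, so the ages overlapped, and D1 sums held 0.701 and 0.466 against 0.280 and 2.03 CPM. It was not called without the second old library (-0.76), with DESeq2, at 5000 UMIs or with doublets left out. Sfmbt2 held 12.9 and 13.5 CPM in young and 1.76 and 4.07 CPM in old D2 sums, while D1 sums held 2.69 and 2.73 against 1.15 and 1.48 CPM. It was not called without either old library, with DESeq2, at 5000 UMIs or with doublets left out.

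Immediate early genes, which neurons transcribe within minutes of activity and calcium entry, included several with a lower age effect in D2 than in D1. Of 22 tested 6 were called lower and none higher (27.3%, beside 0.143% of all genes), 21 had a negative difference and the list median was -0.56. The genes were Fos, Junb, Fosl2, Egr1, Egr2 and Egr4, all transcription factors. In D2 sums alone none of 21 was called by edgeR (list median -0.66), and 5 were lower by DESeq2 (23.8%, beside 610 of all 18368 genes). At 5000 UMIs 2 of 19 were called lower (10.5%, beside 372 of all 16219 genes). The list median depended on the young libraries, at -0.94 without the first and -0.36 without the second. In D1 sums the median was -0.08. In oligodendrocyte sums it was -0.39, with 12 of 15 genes negative and none called.

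Junb held 37.1 and 49.5 CPM in young and 22.5 and 31.1 CPM in old D2 sums, with 64.3, 73.6, 60.2 and 96.4 CPM in the matched D1 sums (difference -0.86, SE 0.09, adjusted p = 0.0102). D2 levels were lower in the old libraries while D1 levels overlapped between ages. Egr4 held 13.0 and 18.0 against 7.62 and 9.85 CPM in D2, and 14.2, 23.6, 15.4 and 21.2 CPM in D1 (-0.77, SE 0.10, adjusted p = 2.51e-04). Fos held 3.73 and 8.12 against 2.38 and 2.74 CPM in D2, and 5.32, 11.8, 7.62 and 6.81 CPM in D1 (-0.95, SE 0.15). Egr1 differed by -0.73 (SE 0.08), with 50.3 and 60.2 against 38.1 and 52.3 CPM in D2 and the highest D1 value, 125 CPM, in the second old library.

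Junb was not called with doublets left out (-0.95, adjusted p = 0.230), and DESeq2 did not call Fos, Fosl2, Egr2 or Egr4. Fos, Fosl2 and Egr2 were also lost at 5000 UMIs and without the first old library, Egr4 and Egr2 without the second old library, and Egr2 with doublets left out. The second young library had the highest D2 level of Junb, Egr4, Fos and Egr1, and the second old library the higher of the 2 old levels. Without the first young, second young, first old and second old library 8, 12, 3 and 5 genes of the list were called lower, and 4 with doublets left out. Arc and Nr4a1, further activity genes, had differences of -0.98 and -0.67 that were not called. Rgs2 (-0.56) and Per1 (-0.44), chosen after their values were seen, are also induced by activity and were called, but Per1 was not with DESeq2 or without either old library.

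**Figure D5:**
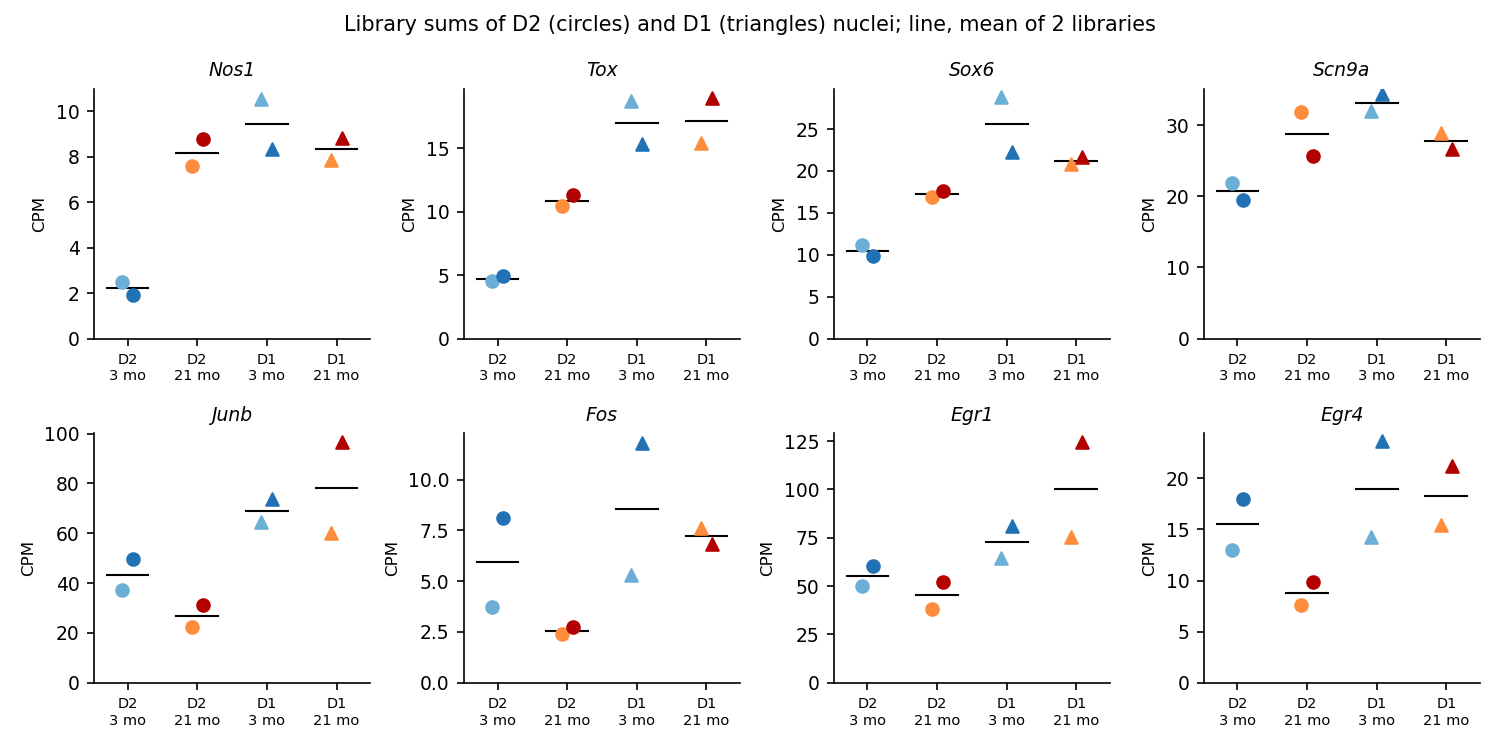
CPM (y axis) of 8 genes by type and age (x axis), in D2 sums (circles) and D1 sums (triangles), 1 point per library and a line at the mean of 2. Nos1, Tox and Sox6 rise in D2 towards a D1 level that stays level or falls, and Junb, Fos and Egr4 are lower in old D2 sums while D1 sums overlap between ages.

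At 5000 UMIs a Fos UMI was carried by 1.78% and 3.96% of young and 1.21% and 1.12% of old D2 nuclei, where oligodendrocyte nuclei had 0.909%, 0.546% and 2.50% in the first young and both old libraries, the last being 1 of 40 nuclei. Junb was carried by 14.7% and 20.2% against 9.08% and 12.9% of D2 nuclei (6.36%, 12.4%, 3.28% and 7.5% of oligodendrocyte nuclei). The genes were found in the same nuclei: Junb was present in 47.2%, 59.9%, 25.6% and 46.9% of D2 nuclei with a Fos UMI and in 14.1%, 18.6%, 8.87% and 12.5% of those without. Egr1 was present in 23.1% to 48.7% of the former and 16.1% to 24.8% of the latter.

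The promoters of 3 of the called genes are shown since they hold the core of the cyclic AMP response element, through which activity drives many of them. TGACG, searched on both strands in the same 250 bases, was found in 13 of 17 immediate early genes matched in RefSeq (76.5%), in 4 of the 5 called ones matched and in 19.8% of all 27025 genes. The full element TGACGTCA, which contains it, was found in 2 of the 17 (Dusp1 and Btg2) and in 1.77% of all genes. The capitals mark TGACG or its complement on the strand shown.
Fos, chr12:85473640-85473889, plus strand: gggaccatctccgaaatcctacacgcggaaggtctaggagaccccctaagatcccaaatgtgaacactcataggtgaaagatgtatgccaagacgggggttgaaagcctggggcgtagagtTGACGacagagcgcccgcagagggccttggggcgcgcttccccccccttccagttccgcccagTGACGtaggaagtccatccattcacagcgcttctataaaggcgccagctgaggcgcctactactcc
Junb, chr8:84978749-84978998, minus strand: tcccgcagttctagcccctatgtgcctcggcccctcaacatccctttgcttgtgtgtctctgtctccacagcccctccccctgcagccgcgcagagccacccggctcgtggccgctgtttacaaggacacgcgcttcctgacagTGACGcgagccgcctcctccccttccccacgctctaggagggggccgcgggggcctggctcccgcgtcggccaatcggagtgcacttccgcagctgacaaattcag
Egr4, chr6:85513590-85513839, minus strand: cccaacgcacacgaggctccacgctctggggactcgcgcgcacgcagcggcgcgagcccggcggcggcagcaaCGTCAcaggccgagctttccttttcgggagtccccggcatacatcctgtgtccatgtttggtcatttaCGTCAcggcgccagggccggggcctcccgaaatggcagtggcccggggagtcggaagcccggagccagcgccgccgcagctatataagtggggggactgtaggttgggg
Fos has 2 matches on its own strand, Junb 1, and Egr4 has 2 on the other strand. Fosl2, which was called too, has none in this window, which says only that these letters are absent from it.

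D2 neurons of the striosome (patch) and matrix compartments could be told apart in part. Nuclei thinned to 5000 UMIs were ordered in each library by UMIs of 6 patch genes (Oprm1, Kremen1, Sema5b, Lypd1, Bach2 and Nnat) against 6 matrix genes (Epha4, Id4, Sv2b, Gda, Calb1 and Rasgrp2), and the highest and lowest 10% were summed. These ends are ranges of a score and carry no test. Among genes outside the score, the receptor kinase gene Alk was at 219 to 477 CPM in the patch end and 3.8 to 8.1 CPM in the matrix end, Car10 at 134 to 211 against 2.7 to 10.5 CPM, and Gpc6, a glypican gene, at 575 to 922 against 31.6 to 100 CPM. The serotonin receptor gene Htr2a and the potassium channel gene Kcnt2 were also higher in the patch end of each library. Sgk1, a kinase gene, was at 120 to 163 CPM in the patch and 400 to 500 CPM in the matrix end, and Htr4, Grm8, Cdh4 and Nell1 leaned the same way. Patch genes had a mean of 1.70 and 2.11 UMIs per young and 2.19 and 2.07 per old nucleus, which overlap, and matrix genes 4.04 and 3.92 against 3.78 and 3.74. None of the 12 genes was called with age.

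Female and male D2 nuclei could be compared within each library, since Xist marked the former and 4 Y-linked genes the latter. Female nuclei made up 35.98% to 46.1% and male nuclei 27.7% to 40.9% of D2 members, and 19.1% to 25.3% carried both kinds of UMI. Outside the genes used for the call, 0 of 15749 genes differed by edgeR (0.0%; 677 had an unadjusted p under 0.05, or 4.3%), and 16 by DESeq2, 15 of them higher in females. Kdm6a, which escapes X inactivation and was among the 16, held 96.9 to 111 CPM in female and 69.0 to 76.2 CPM in male sums, with no overlap in the 4 libraries. The age effect differed between the sexes in 0 of 16490 genes by edgeR and 0 by DESeq2 (658 unadjusted, 3.99%). Nos1 was higher in the old libraries in both sexes, at 2.35 and 2.48 against 7.16 and 4.81 CPM in females and 2.50 and 1.21 against 8.28 and 9.10 CPM in males. Slc24a3 was lower in both, at 79.6 and 91.8 against 22.1 and 31.6 CPM and at 75.5 and 89.1 against 32.3 and 27.7 CPM.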

How the data were processed

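The deposited files hold UMI counts per gene and barcode, filtered to cell barcodes by the authors. The submitters' processing notes name Cell Ranger 4.0.0 and mm10, while the file headers give 6.1.2, and 7.0.0 for the second young caudate putamen library. Whether introns were counted is not given in the sources used here. Counts of D2 nuclei were summed per library (44904419 to 79478226 UMIs), filtered with filterByExpr, scaled by TMM and tested with edgeR 4.0.16 (quasi-likelihood, robust, R 4.3.3), with Benjamini-Hochberg adjustment over all genes tested. CPM are counts scaled to an equal total per sum, and fold changes are 21 over 3 months. Genes of the membership rule were not tested. Doublets came from Scrublet in scanpy 1.11.5.

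Genes were named by a rule: the 10 largest changes in each direction with an adjusted p under 0.05, a mean of 5 CPM or more over the 4 libraries and no overlap of ages, up to 4 called members per gene list by adjusted p in the age test, and the 5 largest called differences in each direction between D2 and D1 among genes with a mean of 5 CPM or more in D2 sums (Fos lies under it). Further members (among them Calr, Pdia3, Pdia4, Hsph1, Dnaja1, Tcp1, Ppp1ca, Rgs4, Rgs20, Pcdha1, Pcdha4, Pcdhb8, Egr1, Egr2, Fos and C4b) were chosen after their values were seen. Members and lists were chosen with earlier results of these data known. Of 32285 gene identifiers, 99.8% matched GENCODE vM21 on GRCm38. Alternatives were DESeq2 1.42.0, limma 3.58.1 (voom), other scaling, no filter, thinning, doublets out, stricter markers, a mitochondrial limit, removal of the length trend and leaving out each library. On simulated counts the age test recovered 87.7% of 195 genes changed by 1 on the log2 scale among 18122, with 4 false calls, and the D2 against D1 test 57% of 200 among 18574, with 9 false calls. The simulation gave all genes the same dispersion and held no library, doublet or length effect, so its false calls are not the error rate of these data.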

Additional observations from a re-analysis of the deposited data

Results flagged for a closer look

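The age effect differed between D2 and D1 nuclei, by the test of the difference itself (edgeR, adjusted p under 0.05), in the 10 genes the naming rule gives. It was higher in D2 for Nos1 (2.07 on the log2 scale), Tox (1.15), Sox6 (0.97), Scn9a (0.74) and A230077H06Rik (0.71). It was lower in D2 for Gm49678 (-1.65), Sfmbt2 (-1.15), Junb (-0.86), Fosl2 (-0.84) and Egr4 (-0.77). Nos1 and Tox reach the minimum mean of 5 CPM in D2 sums only through the old libraries, and Sfmbt2 only through the young ones. Nos1, Tox and Sox6 were past the threshold in all 9 alternatives run. Sox6, Junb, Scn9a, Sfmbt2 and A230077H06Rik overlap an opposite-strand gene in the annotation, as Nos1 and Tox do, and whether counting used strand is not given in the sources used here.

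In the hippocampal libraries, which the comparisons do not use, 67 of 46752 barcodes (0.143%) met the D2 rule.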

How the results depend on the processing

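The 931 D2 age genes called became 1729 with no filter on low counts and 1784 with sums per animal in limma voom (correlation within a library -0.17), and 685 to 1096 under 7 other alternatives. Among the 7, the mitochondrial limit left out no D2 nucleus, so that fit repeats the main one and is no separate check. Leaving out 1 library gave 51 to 345, with all 931 keeping their direction. That direction was close to fixed in advance, since the 931 were called on all libraries together. Same-numbered libraries of the 2 ages deviated together with a correlation of 0.31, and the replicate block gave 2968 calls. The 2 pairs are known to share only a number, so pairing cannot be told apart from other differences between libraries. The 55 differences between D2 and D1 became 14 with DESeq2, 179 with no filter, 31 at 5000 UMIs and 13 to 226 with 1 library left out. Sex calls went from 0 to 16 with DESeq2, 30 with no filter and 0 to 25 with 1 library left out, and sex by age calls from 0 to 8 with no filter and 0 to 57. The D2 share differed by 2.26 to 6.01 points with 1 library left out. Sox10, an oligodendrocyte lineage gene, rose by 0.74 on the log2 scale in D2 sums and stood at -0.051 (adjusted p = 0.909) without doublets. The causes were not tested. With 2 pools per age, differences within the spread of 1 pair cannot be resolved.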
